A study of Mus musculus with 2 samples.

Results

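The 32 genes described here carry glucose into cells, break it down to pyruvate and lactate, move lactate across membranes and set how much pyruvate enters mitochondria. They were chosen by symbol, matched to the expression tables by Ensembl ID, and all 32 were found among the 43346 genes listed. RNA was measured in forebrain of newborn mice on day 0 after birth, strain B6NTac;B6NCrl/Lap, healthy, both sexes pooled. The series has 1 group of 2 libraries from separate isolates, called replicate 1 and replicate 2. Replicate 1 came from 15 mice and replicate 2 from pooled mice of unstated number, so both are averages over animals and give no spread between animals. The labels give both libraries the same donor record, so each SD covers the spread between these isolates and may be partly technical. RNA over the small-RNA size range was depleted of ribosomal RNA and sequenced with strand kept, without a step that removes unspliced RNA.

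Glucose enters brain cells through facilitated carriers of the SLC2A family and is trapped by hexokinase. A chain of cytosolic enzymes splits the sugar and ends with pyruvate kinase, which makes ATP and pyruvate. Lactate dehydrogenase turns pyruvate into lactate, which leaves or enters cells through monocarboxylate carriers, whereas pyruvate dehydrogenase commits pyruvate to the mitochondrial cycle and is switched off by its kinases. Most steps have several isozymes from separate genes, known for different tissues, cell types and modes of regulation.

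Levels are given as coding TPM, that is TPM (each transcript's share of all RNA molecules, corrected for its length) rescaled so that the protein-coding genes of every library have the same sum. Where a pair of values is given, the first is of replicate 1 and the second of replicate 2. The libraries held 62516003 and 65912060 expected counts in replicates 1 and 2, of which protein-coding genes took 69.3% and 77.5% and the 32 genes 0.35% and 0.385%. Of 6 forebrain transcription factors checked as tissue markers, 5 reached 10 coding TPM in both libraries. The libraries differed in other tissue markers. Summed levels of 6 meningeal fibroblast genes were 345 coding TPM in replicate 1 and 904 in replicate 2, those of 6 red blood cell genes were 2512 and 1813, and those of 6 muscle genes were 31.7 and 16. None of these marker genes was at 0 in both libraries.

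Every one of the 32 genes was expressed, and most stood well above the typical gene. All 32 reached 1 coding TPM in both libraries, against 63.3% of the 21474 protein-coding genes. At 10 coding TPM there were 27 of 32, against 45.9% of protein-coding genes, and at 100 there were 15 of 32, against 8.28%. The median of the 32 was 84.9 coding TPM in replicate 1 and 87 in replicate 2, beside 7.46 and 8.81 for all protein-coding genes. Together they held 0.688 ± 0.0238% of coding TPM (SD, n = 2). The tissue is a mixture, so fewer cells of a type and less RNA per cell cannot be told apart in any of these levels.

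Gapdh, the dehydrogenase that gives the pathway its NADH, stood far above the rest at 2221 ± 352 coding TPM (SD, n = 2), and without it the other 31 held 0.466 ± 0.0114% of coding TPM. Pkm (pyruvate kinase) and Aldoa (aldolase) followed at 604 ± 56.4 and 558 ± 17.1. Ldha, Pgam1, Tpi1 and Eno1 lay between 301 and 379 coding TPM on average. The lowest were Hk2 at 1.88 ± 0.159, Pdk4 at 2.42 ± 1.01, Slc16a3 at 7.84 ± 1.17, Pdk2 at 8.22 ± 2.26 and Eno3 at 10.6 ± 4.85. These 5 are the genes that missed 10 coding TPM in at least 1 library. Ordered by mean, 17 of the 31 pairs of neighbours had ranges over the libraries that overlapped, and 14 did not. Gapdh stood apart from Pkm, Pkm overlapped Aldoa, and Aldoa stood apart from Ldha.

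**Figure D1:**
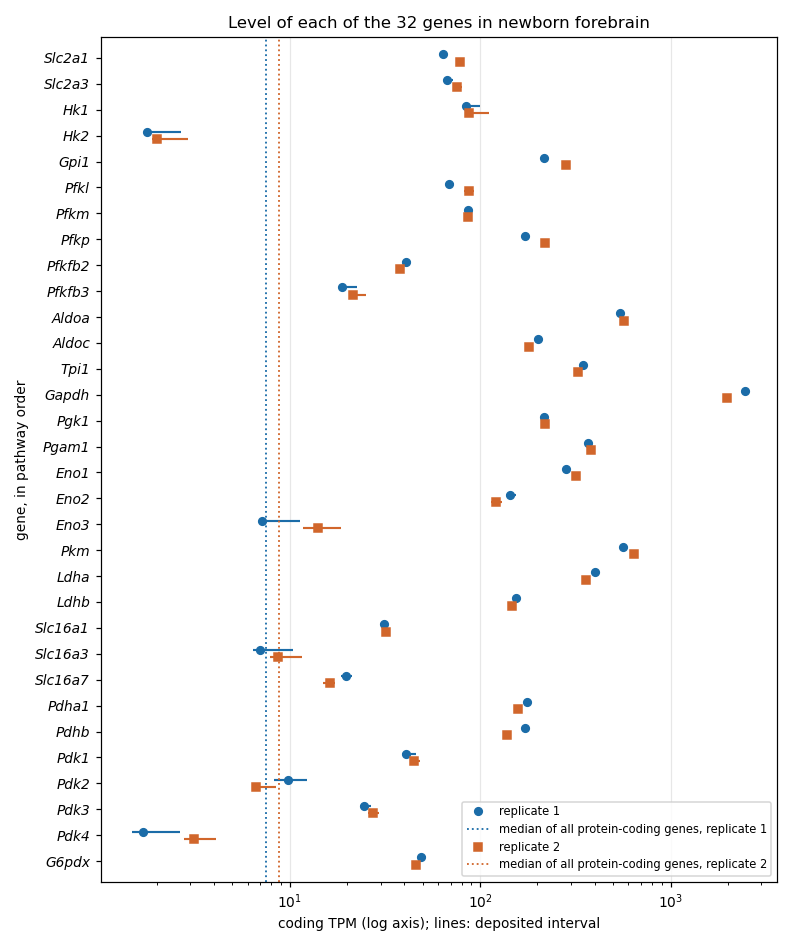
Level of each gene in coding TPM (log axis) in replicate 1 (circles) and replicate 2 (squares), with the interval deposited for each value as a line and the median of all protein-coding genes as dotted lines. Gapdh lies farthest right at 2470 and 1972, and Hk2, Pdk4, Slc16a3, Pdk2 and Eno3 lie left of the median in at least 1 library.

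Pkm encodes 2 forms of pyruvate kinase through a choice between neighbouring exons of equal length. The M1 form is known for constant activity in neurons and muscle, and the M2 form, of embryonic and dividing cells, for control by metabolites and phosphotyrosine. The exons are shown because they are the only part in which the RNAs of these forms differ in coding sequence. In GENCODE M21 on mm10 the gene (ENSMUSG00000032294.12) lies on chromosome 9, from 59656368 to 59679375, with 11 exons in each form. Exon 9, held by Pkm-202 (M1), is chr9:59675029-59675195, and exon 10, held by Pkm-201 (M2), is chr9:59675568-59675734, both on the plus strand and both coding. Capitals mark the bases that differ when the exons are laid side by side.
M1 exon 9: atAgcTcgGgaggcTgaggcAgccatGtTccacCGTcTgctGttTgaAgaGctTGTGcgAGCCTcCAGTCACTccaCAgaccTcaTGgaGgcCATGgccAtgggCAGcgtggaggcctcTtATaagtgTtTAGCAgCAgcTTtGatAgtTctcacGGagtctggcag
M2 exon 10: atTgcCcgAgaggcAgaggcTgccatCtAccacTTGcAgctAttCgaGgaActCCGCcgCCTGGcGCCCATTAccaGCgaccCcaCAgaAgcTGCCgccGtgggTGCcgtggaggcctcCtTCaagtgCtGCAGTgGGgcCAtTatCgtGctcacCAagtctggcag
Each exon has 167 nt, of which 103 are the same and 64 differ, an identity of 61.7%. They are separated by 372 nt of intron, and the longest run they share is 12 nt.

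In newborn forebrain the M1 transcript was the more abundant form. Pkm-202 (M1) stood at 396 coding TPM in replicate 1 and 417 in replicate 2, against 168 and 227 for Pkm-201 (M2). The values of the forms did not overlap, nor did their deposited intervals in either library. M1 held 67.5 ± 3.89% and M2 32.5 ± 3.89% of the gene's TPM (SD, n = 2), with M1 over M2 at 2.36 in replicate 1 and 1.84 in replicate 2. The counts behind these shares were 19005 and 21697 for M1 and 8040 and 11801 for M2. The deposited tables list both transcripts at 2432 nt, and no other transcript of the gene is listed. Reads wholly within the coding exons that the forms share fit both and do not separate them.

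**Figure D2:**
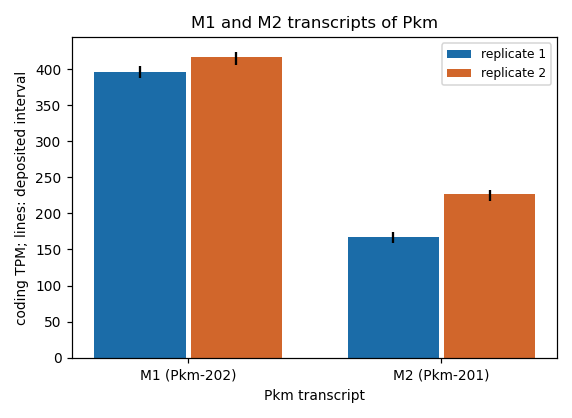
Coding TPM of the M1 and M2 transcripts of Pkm in each library, with the deposited interval as a line on each bar. M1 stands at 396 and 417 and M2 at 168 and 227, so M1 is higher in both libraries and M2 differs more between them.

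Of the members compared as isozymes, 9 families gave 14 pairs of the leading gene over another gene of its step. The leader was the gene with the highest mean over these same libraries, so its lead in the mean was set by that choice. In 13 of the 14 the leader was higher in both libraries with deposited intervals that did not overlap. With 2 libraries an exact sign test gives a two-sided p of 0.5 at the least, so no test is given and the ratios stand for each library.

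The exception was the pair of glucose carriers. Slc2a1 (ENSMUSG00000028645.6, chromosome 4, 119108711 to 119137983) encodes GLUT1, the carrier of the blood-brain barrier and glia, and Slc2a3 (ENSMUSG00000003153.6, chromosome 6, 122727809 to 122801640) encodes GLUT3, the high-affinity carrier of neurons. Slc2a1 stood at 63.7 and 78.4 coding TPM in replicates 1 and 2, and Slc2a3 at 66.7 and 75.1. The order switched between the libraries, with Slc2a1 over Slc2a3 at 0.955 and 1.04, and the intervals overlapped in both. With protein-coding transcripts alone the ratios were 1.0 and 1.09, and with transcripts of at least 1000 nt 1.10 and 1.11. Genes of endothelium, where Slc2a1 is known to be high, summed to 215 coding TPM in replicate 1 and 278 in replicate 2, and their part in the Slc2a1 level was not tested.

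Hexokinase RNA came almost wholly from Hk1, the isozyme bound to mitochondria in brain. Hk1 stood at 83.9 and 86.9 coding TPM, against 1.77 and 2.00 for Hk2, the insulin-responsive isozyme of muscle and fat. Hk1 made up 97.9% and 97.7% of their sum, with ratios over Hk2 of 47.3 and 43.5 that rest on 207 and 252 counts of Hk2. Gpi1, the isomerase of the next step, had 216 and 284 coding TPM.

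Phosphofructokinase, the committed and most regulated step, was represented by all of its subunit genes. Pfkp, the platelet type known in brain, led with 171 and 220 coding TPM. Pfkm, the muscle type, had 85.9 and 86.8, and Pfkl, the liver type, 68.9 and 87.2. Pfkp exceeded Pfkl at 2.48 and 2.52 and Pfkm at 1.99 and 2.53, while Pfkm over Pfkl was 1.247 and 0.996, with intervals that did not stay apart. The lead of Pfkp turned round when only transcripts annotated as protein-coding were counted. Those of Pfkp gave 29.5 and 20.5 coding TPM, so that Pfkp over Pfkl became 0.46 and 0.236 and Pfkp over Pfkm 0.344 and 0.236. Pfkp (ENSMUSG00000021196.9, chromosome 13, 6579768 to 6648777) had 82.7% and 90.7% of its TPM and 79.9% and 86.2% of its counts in transcripts annotated as retained introns.

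The bifunctional PFKFB enzymes make and remove the sugar bisphosphate that activates phosphofructokinase. Pfkfb2, the cardiac type, stood at 40.8 and 38 coding TPM, against 18.8 and 21.6 for Pfkfb3, the type with high kinase activity that neurons are known to degrade. Pfkfb2 over Pfkfb3 was 2.17 in replicate 1 and 1.76 in replicate 2, and with protein-coding transcripts alone 1.70 and 1.30.

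In the stretch from aldolase to enolase the widely expressed isozymes led. Aldoa stood at 546 and 570 coding TPM, against 201 and 180 for Aldoc, the brain isozyme known in astrocytes and Purkinje cells, with ratios of 2.72 and 3.17. Tpi1, triose phosphate isomerase, had 348 and 325 coding TPM. Pgk1, the phosphoglycerate kinase that makes the first ATP of the pathway, had 217 and 220, and Pgam1, phosphoglycerate mutase, had 368 and 383.

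Enolase RNA came mainly from Eno1, the enolase of glia and dividing cells, and to a smaller part from Eno2, which is known as neuron-specific enolase. Eno1 had 283 and 319 coding TPM and Eno2 144 and 121, so Eno1 was higher in both libraries. The ratio was 1.97 in replicate 1 and 2.64 in replicate 2, and with protein-coding transcripts alone it was 3.32 and 3.70. Eno3, the muscle enolase, had 7.16 and 14 coding TPM from 190 and 248 counts. Eno1 over Eno3 was 39.5 and 22.7, and with protein-coding transcripts alone 38.5 and 41.3.

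**Figure D3:**
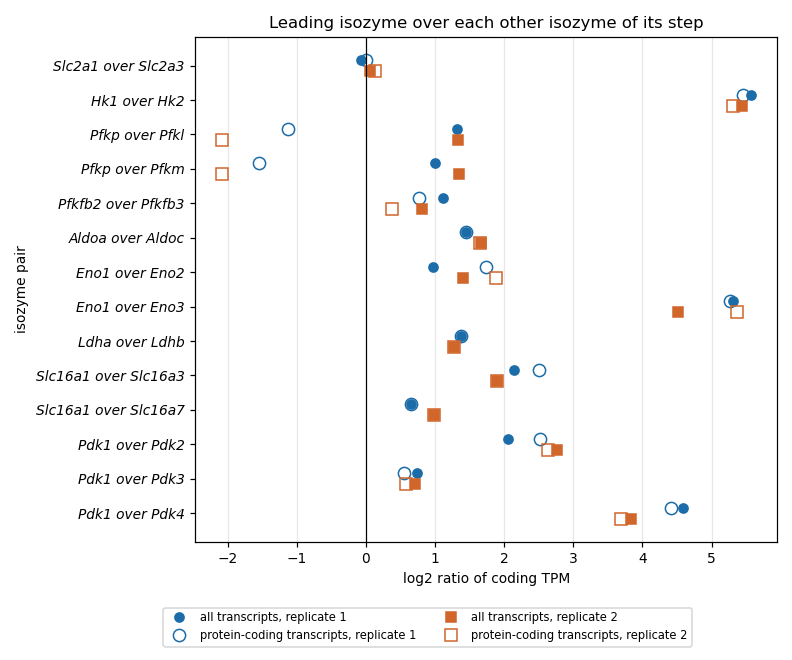
log2 ratio of the leading isozyme over each other isozyme of its step in replicate 1 (circles) and replicate 2 (squares), for all transcripts (filled) and for protein-coding transcripts alone (open). Right of 0 the leader is higher. Slc2a1 over Slc2a3 lies at 0, and the open symbols of the Pfkp pairs lie left of it.

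Lactate dehydrogenase is a tetramer whose subunits set its preference, with LDHA of glycolytic tissue known to favour lactate formation and LDHB of heart and neurons its use. Ldha stood at 400 and 358 coding TPM, against 154 and 148 for Ldhb, and the values did not overlap. Ldha over Ldhb was 2.59 in replicate 1 and 2.43 in replicate 2.

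Among the lactate carriers, Slc16a1 led. It encodes MCT1 of endothelium and glia and stood at 31.1 and 32.1 coding TPM. Slc16a7, which encodes MCT2, the high-affinity carrier of neurons, had 19.9 and 16.3, and Slc16a3, which encodes MCT4 of glycolytic cells and astrocytes, had 7.02 and 8.67. Slc16a1 over Slc16a7 was 1.56 and 1.97, and Slc16a1 over Slc16a3 was 4.43 and 3.71. With transcripts of at least 1000 nt Slc16a1 over Slc16a3 was 7.13 and 9.57. Bsg, the chaperone that brings MCT1 and MCT4 to the membrane, was far more abundant than any of them at 1077 and 924 coding TPM.

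At the mitochondrial entry the subunit genes of pyruvate dehydrogenase, Pdha1 and Pdhb, were close to each other, with 176 and 158 coding TPM for Pdha1 and 171 and 138 for Pdhb. Pdha1 over Pdhb was 1.03 and 1.15, and the intervals of these subunits did not stay apart in both libraries. Of the kinases that switch the enzyme off, Pdk1, a target of hypoxia signalling, led with 40.8 and 44.9 coding TPM. Pdk3 had 24.5 and 27.3, Pdk2 9.82 and 6.63, and Pdk4, the kinase of fasting and fat use, 1.70 and 3.13. Pdk1 over Pdk3 was 1.66 and 1.64, and over Pdk2 4.15 and 6.77. Over Pdk4 it was 24 in replicate 1 and 14.3 in replicate 2, where Pdk4 rests on 121 and 241 counts. G6pdx, which draws the phosphorylated sugar into the pentose phosphate pathway, stood at 49 and 46 coding TPM.

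The tables list 216 transcripts for the 32 genes. Only 3 genes, Pgam1, Slc16a1 and Pdhb, have 1 transcript, and of the other 29 the same transcript led in both libraries for 26. The leader averaged 80% of the gene's TPM or more for 19 of the 29. Transcripts annotated as protein-coding held at least 90% of TPM in both libraries for 22 of the 32 genes and under 75% in at least 1 library for 7. These 7 were Pfkp, Pfkfb2, Pfkfb3, Gapdh, Eno2, Eno3 and Pdk2.

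Pfkp was led by a transcript not of a coding type in both libraries, and Gapdh in replicate 1. Pfkp-212, a retained intron transcript of 4663 nt in the tables, held 35.9 ± 0.764% of TPM from 6031 and 8208 counts, and Pfkp-210, of 702 nt, 25.8 ± 1.02% from 428 and 609 counts (SD, n = 2). For both, the shares in the libraries lay close together. A short transcript takes more TPM per read, so transcripts under 1000 nt held 31.7% and 41.3% of Pfkp's TPM on 5.65% and 7.8% of its counts.

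Gapdh (ENSMUSG00000057666.14, chromosome 6, 125161715 to 125166467) divided differently in the libraries. Gapdh-203, a protein-coding transcript of 1420 nt, held 40.8% of TPM in replicate 1 and 73.4% in replicate 2. Gapdh-208, of 483 nt and annotated as a processed transcript, held 50.3% and 24.6%. The gene total was higher in replicate 1, at 2470 coding TPM against 1972 in replicate 2, a log2 ratio of replicate 2 over replicate 1 of -0.33. The counts gave 0.02 on the same scale, and protein-coding transcripts alone gave 0.30, so the direction of the Gapdh difference changed with the unit and the transcripts counted.

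Eno3 differed between the libraries in TPM more than in counts. Eno3-201 held 49.6% and 52.8% of TPM and Eno3-206 50.4% and 0%, both protein-coding. Eno3-208, a retained intron transcript of 498 nt, was listed at 0% in replicate 1 and 47.2% in replicate 2 on 37 counts. The log2 ratio of replicate 2 over replicate 1 was 0.97 in coding TPM, 0.10 in TMM-scaled counts and 0.05 in protein-coding transcripts. Pgk1-203, annotated for nonsense-mediated decay, held 19% of Pgk1 in replicate 1 and 1.3% in replicate 2, and Pdk2-204, a processed transcript, 28.5% and 0% of Pdk2. Eno3-208, Pgk1-203 and Pdk2-204 were singled out after their values were seen.

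The remaining genes with a divided output kept coding transcripts as leaders. Aldoc gave 73.4 ± 4.99% to Aldoc-202 and 24.4 ± 3.4% to Aldoc-201. Slc16a7 gave 65.4 ± 9.29% to Slc16a7-202 and 34.6 ± 9.29% to Slc16a7-201. Eno2 was spread more widely, with 30.7 ± 10.4% in Eno2-201 and 15.5 ± 0.721% in Eno2-213, and 40.5% and 31.4% of its TPM lay in retained intron transcripts. Pfkfb2 gave 32 ± 3.56% to Pfkfb2-204 and 22.3 ± 8.49% to Pfkfb2-205, which is annotated for nonsense-mediated decay. Pfkfb3 gave 45.3 ± 4.96% to Pfkfb3-201 and 13.5 ± 2.19% to Pfkfb3-208, a retained intron transcript of 614 nt. Slc16a3, with 241 and 262 counts in all, gave 37.7 ± 6.65% to Slc16a3-202, and Slc16a3-203 was at 0% and 46.6%.

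**Figure D4:**
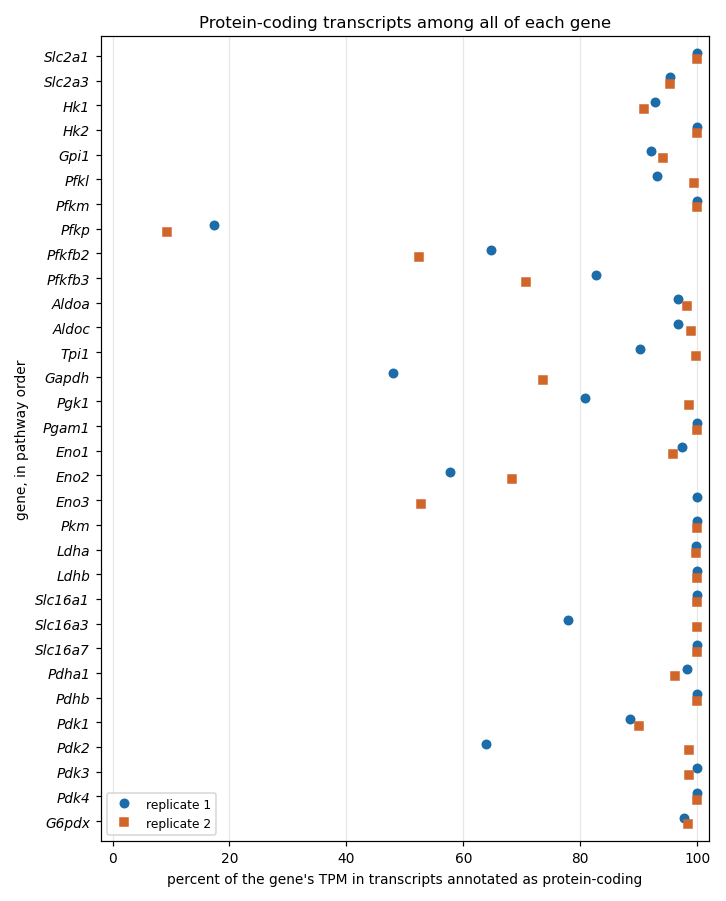
Percent of each gene's TPM in transcripts annotated as protein-coding, in replicate 1 (circles) and replicate 2 (squares). Most genes lie at the right edge, Pfkp lies at 17.3% and 9.31%, and Gapdh, Eno3, Pdk2 and Slc16a3 have symbols far apart.

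Other genes of these pathways were examined in 13 lists of 114 genes, of which 73 reached 10 coding TPM in both libraries. Most carriers and kinases outside the 32 were low. Of 11 other hexose carriers 3 reached 10 coding TPM, namely Slc2a13, a proton-coupled inositol carrier, at 22.3 ± 5.57, Slc2a8 at 22.1 ± 5.35 and Slc2a6 at 15.7 ± 0.102 (SD, n = 2 for these and the means below). Of 4 other hexokinases Adpgk, which uses ADP, stood at 19.2 ± 4.18 and Hk3 at 1.03 ± 0.426. Of 9 glycolytic isozymes known from germ cells, red cells, liver or muscle 6 stayed under 1 coding TPM in both libraries. Bpgm, the bisphosphoglycerate mutase of red cells, had 48.1 ± 0.429, Pgam2 1.88 ± 2.15 and Eno4 1.23 ± 0.698. Of 5 genes of gluconeogenesis and its exits 3 reached 10, with Pcx, pyruvate carboxylase, at 36.7 ± 3.41, G6pc3 at 28.8 ± 3.18 and Pck2 at 14.1 ± 1.13.

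Genes of connected pathways were expressed to different extents. All 6 genes of the pentose phosphate pathway after G6pdx reached 10 coding TPM, led by the transketolase Tkt at 295 ± 10.1, the transaldolase Taldo1 at 251 ± 50.9 and Pgls at 247 ± 12.8. All 17 genes of the tricarboxylic acid cycle did, with Sdhb at 271 ± 38 and Cs, citrate synthase, at 218 ± 28.8. All 5 genes of mitochondrial pyruvate entry did, with the carrier subunits Mpc1 at 331 ± 51.4 and Mpc2 at 143 ± 30.1 and Dlat at 61.7 ± 3.97. Of 9 genes of the NADH shuttles 7 did, with Mdh1 at 331 ± 70.7, Got2 at 176 ± 15.5 and Slc25a11 at 129 ± 0.0891. Glycogen genes reached 10 for 8 of 14, led by the brain phosphorylase Pygb at 155 ± 18.2, Ugp2 at 65.8 ± 1.41 and Pgm1 at 60.8 ± 14.

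Regulators were also present. Of 8 further regulators of phosphofructokinase and pyruvate dehydrogenase 4 reached 10, led by the pyruvate dehydrogenase phosphatase genes Pdp1 at 79.3 ± 2.39 and Pdpr at 28.4 ± 2.53 and the kinase Pfkfb4 at 23.8 ± 5.4. Of 6 monocarboxylate chaperones and other carriers 2 reached 10 in both libraries, and Emb, the chaperone of MCT2, had 10.8 ± 1.69. Among 14 regulators of glycolytic genes 11 reached 10, led by Txnip, which lowers glucose uptake, at 137 ± 33.7, Hif1a at 106 ± 10.5 and Egln2, an oxygen sensor of HIF, at 104 ± 5.77. Of 6 splicing regulators known to act on Pkm 5 did, with Srsf3, which favours the M2 exon, at 265 ± 8.9, Ptbp2, the neuronal polypyrimidine tract protein, at 218 ± 5.64 and Hnrnpa1, which represses the M1 exon, at 215 ± 39.9.

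Between the libraries 31 of the 32 genes differed by less than 1.5-fold. Ratios are log2 of replicate 2 over replicate 1 in TMM-scaled counts with exact binomial intervals for counting error, and they compare these libraries, not conditions. Only Pdk4 was past that fold, with 121 counts in replicate 1 and 241 in replicate 2 and a ratio of 0.71 (95% interval 0.39 to 1.04). That is 1 of 32, whereas 22.4% of the 17536 genes that averaged 10 counts or more passed 1.5-fold, and 11.6% of the 13681 that averaged 100 or more, the range in which all 32 lie. Of the 114 further genes 104 averaged 10 counts or more, and 12 were past 1.5-fold higher and 4 lower in replicate 2, which is 15.4%.

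The ratios of the 32 ran from -0.56 for Slc16a7 to 0.71 for Pdk4, with a median of -0.11 beside 0 for all genes tested. Of these 12 lay above 0 and 20 at or below it, and for 24 the counting interval left out 0. Those above were led, after Pdk4, by Gpi1 at 0.26 (0.22 to 0.30), Pfkl at 0.18 (0.13 to 0.23) and Slc2a1 at 0.14 (0.07 to 0.20). Those below were led, after Slc16a7 (-0.69 to -0.44), by Pdhb at -0.48 (-0.55 to -0.42), Aldoc at -0.35 (-0.39 to -0.30), Pdha1 at -0.34 (-0.38 to -0.30), Ldha at -0.33 (-0.37 to -0.29) and Eno2 at -0.32 (-0.38 to -0.26). The carrier genes Mpc1 and Mpc2 lay on the same side at -0.52 and -0.56. They were the lowest of the 5 genes of mitochondrial pyruvate entry, whose median was -0.35, with Dlat at -0.02. Counting intervals leave out differences between isolates, which 1 library each cannot give. The median of the 32 was 0.09 with scaling by library totals, where the median of all genes was 0.19, and 0.05 in coding TPM, where it was 0.15. Beside the Pdk4 ratio, the 6 meningeal genes had a median ratio of 1.02, the 6 muscle genes -1.30 and the 6 red blood cell genes -0.73, and their part in it was not tested.

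**Figure D5:**
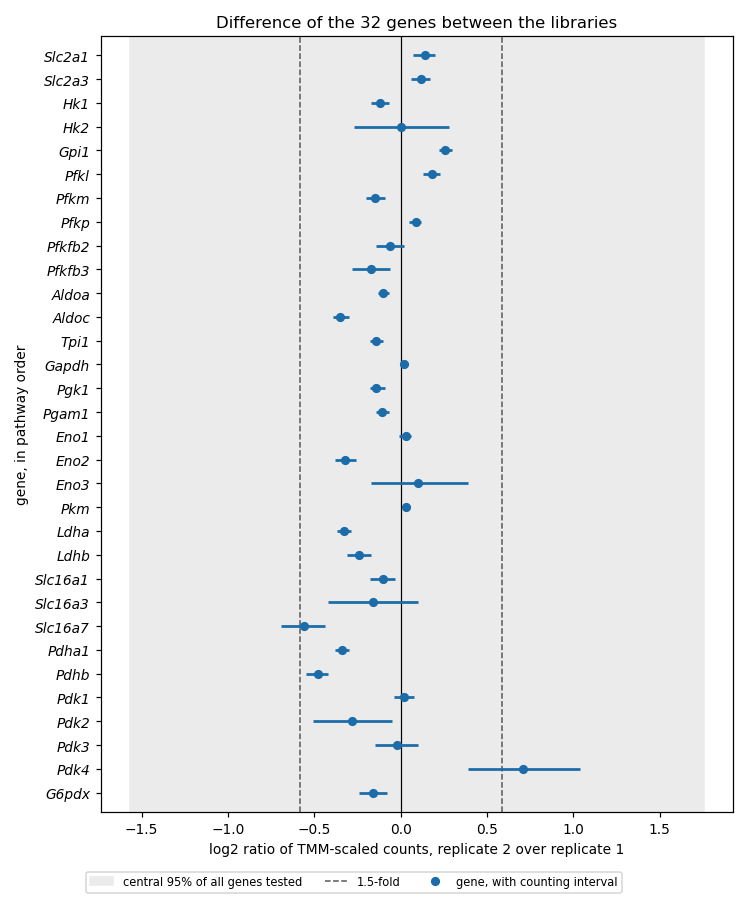
log2 ratio of TMM-scaled counts, replicate 2 over replicate 1, for each gene with its 95% counting interval, with 1.5-fold as dashed lines and the central 95% of all genes tested shaded. Pdk4 at 0.71 lies past the right dashed line, Slc16a7 at -0.56 lies just inside the left one, and the other points lie between them.

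Several of these genes have near-identical pseudogene copies, and the division of reads between copies is an estimate. In the tables, 12 of the 32 have 296 pseudogene copies aligned over at least 300 nt at 85% identity or more, which together hold 5497 and 4528 counts. Pgk1 had the largest share, with 1238 and 813 counts in Pgk1-rs7, 16.6% and 9.89% of its own. Pgam1-ps2 held 1512 and 1387 counts, 11.8% and 9.65% of those of Pgam1. For Gapdh, with 257 copies, the counts of 2 of them differed in opposite directions, Gm10359 with 1666 and 6 counts and Gm7336 with 93 and 1231, while 3000002C10Rik had 215 and 333. The deposited posterior SDs were 412 and 270 counts for Gm10359 and 323 and 319 for Gm7336, so the division between these copies is uncertain. Eno1 had Gm4735 with 126 and 181 counts. Outside the pseudogenes, Gm3839 with 20 and 117 counts and Eno1b with 30 and 155 are annotated as protein-coding and match Gapdh and Eno1 at 99.1% and 99.5% identity. Peli2, also protein-coding, with 1269 and 1475 counts, holds a stretch of 1085 nt at 90.8% identity to Gapdh. The deposited posterior SD was at most 1.02% of the count for any of the 32 genes.

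On the genome the 32 genes lie on 14 chromosomes, with 7 on chromosome 6 and 4 on the X chromosome, namely Pgk1, Pdha1, Pdk3 and G6pdx. Eno2, Tpi1 and Gapdh lie within 406 kb of chromosome 6, from 124760053 to 125166467. Their ratios between the libraries were -0.32, -0.14 and 0.02.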

How the data were processed

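The members and all gene lists were chosen with earlier results of these data known. The authors deposited, for each library, a gene and a transcript table with expected counts, TPM, posterior means, posterior SDs, bounds of TPM and, for transcripts, the percent of the gene's TPM (isoform percentage). Reads were placed on mm10 with GENCODE M4, per the notes deposited with the files (the programs used: not given in the sources used here). The deposited posterior SD is a score of the authors' quantifier for how firmly reads were assigned. The deposited bounds of TPM are a signal interval, for which the tables name no confidence level. These bounds need not hold the estimate: Eno3 in replicate 1 had 7.16 coding TPM and bounds of 7.30 to 11.3. FPKM values were deposited by the authors too and not used.

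TPM was rescaled so that genes of the protein-coding biotype had 1 common sum in both libraries, by the biotypes of GENCODE M21, which matched 42462 of 43346 gene IDs (factors 7.38 and 4.54). Rows that name no gene held 1.72% and 1.24% of counts and stayed out. Expected counts were rounded to whole numbers, 0.5 was added for ratios, and TMM scaling came from edgeR 4.0.16 (R 4.3.3) over genes averaging 10 counts or more. With 1 library a side no p-value is given. Intervals are exact binomial at 95% and cover counting error only, since no molecular identifiers are named in the labels. The code was tested on simulated data. Copies were found with BLAST+ 2.17.0. All 32 members are named, and of each list the 3 genes with the highest mean, some of which are not reported here; of transcripts, the leading 2 where the leader averaged under 80%. Alternatives were other scalings, estimates, lengths, transcript sets, pseudocounts, filters and thresholds, and each library alone.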

Additional observations from a re-analysis of the deposited data

How the results depend on the processing

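Of 34 recomputed values for the main results 7 moved, and 27 stayed within the replicate SD or, for counts, within 1.5 times. Some of the 27 could not move. With 2 libraries, a share with 1 of them left out always lies within the SD. The M2 share over all transcripts and in expected counts repeats the main value, because Pkm has only 2 listed transcripts, of equal length. A limit of 5 coding TPM took in 30 genes and one of 20 took in 25. With TPM as deposited 17 genes reached 10. The share of coding TPM became 0.72% without mitochondrially encoded genes in the sum, 0.501% in expected counts and 0.564% with transcripts of at least 1000 nt, an alternative added after seeing the data. The number past 1.5-fold between the libraries became 2 with the coding TPM ratio, which adds Eno3, while a limit of 2-fold gave 0 and a limit of 0.32 on the log2 scale gave 6. The 112 recomputed pair ratios include those with 1 library left out, which with 2 libraries always fall within the spread and could not move. Of the 112, 92 stayed within the spread and 18 moved. Slc2a1 over Slc2a3, 1 of the 18, has no direction over both libraries. It became 0.15 on the log2 scale with transcripts of at least 1000 nt. The other 17 kept their direction, and 2 turned round. With protein-coding transcripts only, mean log2 Pfkp over Pfkl became -1.60 and log2 Pfkp over Pfkm -1.81. The number of families with a kept leader was 8 there too. Because Pfkp no longer led its family, that number does not stand for the same 8 leaders. Leaving out each library in turn gave 27 to 28 genes at 10 coding TPM, a share of 0.671 to 0.705%, 8 to 9 families with a kept leader and an M2 share of 29.7 to 35.2%. No paired analysis was possible because the series has 1 group. Depth limits Hk2, Pdk4, Eno3, Slc16a3 and Pdk2, with 121 to 313 counts a library.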
